A study of Homo sapiens with 3 samples.

Results

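Oncogene-induced senescence (OIS) and replicative senescence (RS) of IMR-90 ER:Ras cells were compared directly, as the signal of each gene on the OIS array over its signal on the RS array. These are 2 of the 3 arrays of the study, and the array of growing cells enters no ratio of OIS over RS. It was used with the others to set the floor and to choose each gene's probe set, and its signals are given beside theirs. IMR-90 is an established human cell line of normal fibroblasts from lung. ER:Ras marks a derivative with a Ras protein fused to an estrogen receptor domain, which 4-hydroxytamoxifen (4-OHT) switches on. The OIS culture had been kept for 6 days in 100 nM 4-OHT. The RS culture had been passaged repeatedly for 10 weeks, and the growing culture had no treatment. The labels describe all 3 cultures as IMR-90 ER:Ras grown in the same medium with serum, and nothing in the labels says how many clones or cultures an array stands for. The OIS and RS cultures thus differ at once in Ras induction, in 4-OHT and in time in culture, and these cannot be told apart.

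Senescent cells have left the cell cycle for good but stay alive and metabolically active. Oncogenic Ras brings on senescence through sustained signalling of the Raf, MEK and ERK kinases, whereas repeated division does so through the shortening of telomeres, and both routes engage the retinoblastoma pathway. Senescent fibroblasts secrete cytokines, chemokines, proteases and growth factors, a mixture known as the senescence-associated secretory phenotype, in which interleukin-1 and the transcription factor NF-kappaB are upstream players.

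With 1 array per condition there was no test between conditions, and every fold below compares these arrays and has no replicate check. Signals are in the linear intensity units of the deposited table. A signal under 45.5, the median of all values on the 3 arrays, was treated as at the floor, and a fold against such a signal is written "at least". A gene counted as measured when OIS or RS was above the floor, which held for 13068 of 19775 genes with a name of their own on the array. The arrays matched in scale, with 2% trimmed means of 497 on all 3 and 49.8% to 50.3% of probe sets above the floor. Where a gene had a second probe set above the floor (6539 genes), the SD of the log2 ratio of 1 probe set, from the difference between the pair, was 0.36. This covers the spread between probes on the same RNA and not the spread between cultures.

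The gene of the inducible protein was first read on each array. HRAS, which encodes a Ras protein, had a signal of 11748 in OIS, 2553 in RS and 7696 in growing cells, so that OIS was 4.60-fold higher than RS and RS lay below the growing culture. This array feature does not tell the endogenous gene from a transgene, and the label does not say which Ras gene the fusion holds. The estrogen receptor gene ESR1, looked up after the HRAS value was seen, had 6 probe sets above the floor on OIS or RS. The brightest of these had signals of 852 in OIS, 127 in RS and 593 in growing cells, and the next gave 664, 130.2 and 525. The other probe sets of ESR1 above the floor had 478 against 144, 135 against 41.1, 120.5 against 55.5, and 46.5 against 71.2, OIS before RS, so that 5 of 6 were higher in OIS. HRAS and most ESR1 probe sets were therefore lower after 10 weeks of passage than in growing cells. Whether the RS culture carried as much of the fusion as the others cannot be read from these signals, and what part this has in the differences below was not tested.

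The labelled cell type was checked against markers. Most fibroblast markers were bright on both arrays. COL1A1, a chain of type I collagen, had 36639 in OIS against 34357 in RS, the intermediate filament gene VIM 25037 in OIS against 25773 in RS, and PDGFRA, a receptor of platelet-derived growth factor, 10223 in OIS against 9826 in RS. PDPN, podoplanin, was the exception, near the floor in RS and growing cells at 556 in OIS, 52.2 in RS and 55.9 in growing cells, and DCN and LUM, proteoglycans described below, were over 2-fold lower in OIS. Many defining genes of other cell types were at or below the floor on both arrays, among them CDH5, KDR and CLDN5 of endothelium, CDH1, KRT5 and KRT19 of epithelium, and PTPRC, LYZ and MS4A1 of blood cells. Others were not. TEK, the angiopoietin receptor of endothelium, had 1275 in OIS, 2033 in RS and 1251 in growing cells, and the keratin gene KRT18 2963 in OIS, 6010.1 in RS and 2987 in growing cells, 2.03-fold lower in OIS than RS. Of neural markers the tubulin gene TUBB3 had 7870.1 in OIS, 13225 in RS and 13361 in growing cells. Some dim members differed as well. ROBO4, an endothelial guidance receptor, had 576 in OIS, 58.5 in RS and 105 in growing cells, PECAM1, an endothelial adhesion gene, 135 in OIS, 52.7 in RS and 49.0 in growing cells, and the epithelial adhesion gene EPCAM 49.1 in OIS, 194 in RS and 157 in growing cells. Further probe sets gave log2 ratios of 0.77 for ROBO4 and only -0.23 and 0.23 for PECAM1. The neural genes NEFM and MAP2 were at least 2.11-fold higher and 2.17-fold lower. Of the 5 measured endothelial markers 2 were past 2-fold on the side of OIS and of the 5 epithelial ones 2 on the side of RS, while none of 5 blood cell markers passed 2-fold. The part of such cells in other differences was not tested. In bulk RNA, fewer cells of a kind and less RNA per cell cannot be told apart.

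Most genes had similar signals in the 2 senescent states. Of the 13068 measured genes 11621 (88.9%) were within 2-fold, the median log2 ratio of OIS over RS was 0.0051, and the 5th and 95th percentiles were -1.05 and 1.06. At least 2-fold higher in OIS were 738 genes, 5.65% of those measured, and at least 2-fold lower were 709, or 5.43%, together 11.1%. A ratio above 0 was found for 6593 of the measured genes and below 0 for 6472. The counts of each list below are to be read beside these shares. The largest differences were more often on the side of OIS: 188 genes were at least 4-fold higher and 139 lower, and at least 16-fold 26 and 6. The side of the dimmer array was at or below the floor for 150 of the higher and 115 of the lower genes. Dim genes passed 2-fold more often than bright ones, at 14.0% of genes with a geometric mean signal under 200, 12.1% between 200 and 1000, and 7.92% over 1000. Of the 697 genes past 2-fold that had a second probe set above the floor, 94.4% had it on the same side and 56.7% past 2-fold as well.

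**Figure D1:**
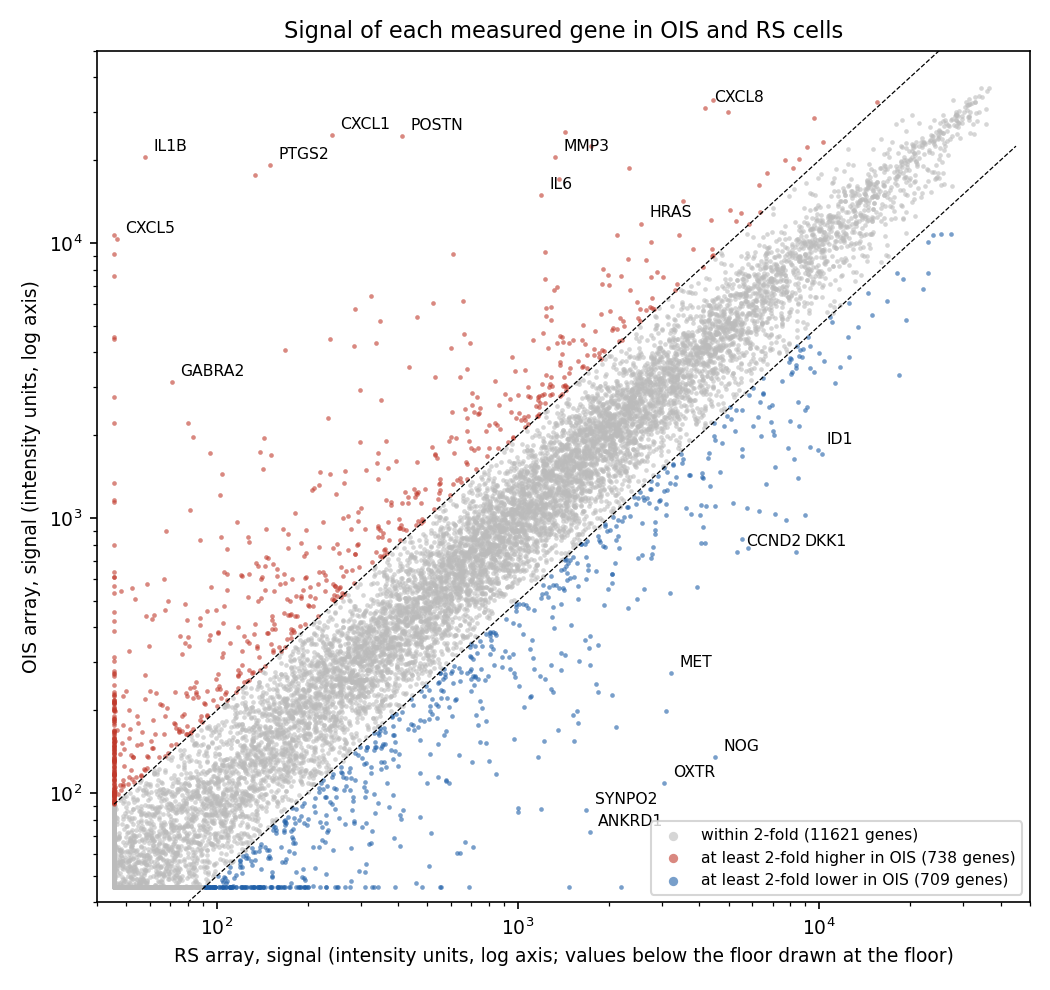
Signal of each measured gene on the RS array (horizontal, log axis) and on the OIS array (vertical, log axis), 1 point per gene, in intensity units with values under 45.5 drawn at 45.5, and dashed lines mark 2-fold. The 738 red genes above the band reach farther from it than the 709 blue genes below, with IL1B, CXCL1, PTGS2 and POSTN far up and NOG, OXTR and ANKRD1 far down.

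Of the gene lists with a measured member, the CXC chemokines that draw neutrophils, whose genes are clustered on chromosome 4, had the highest median. All 6 measured members of 7 listed passed 2-fold on the side of OIS, against 5.65% of all measured genes, with a median log2 ratio of 7.03 beside 0.0051 for all. Because the results turn on these genes and on IL6, the stretch of each promoter that holds a match to GGNNTTTCC, a form of the NF-kappaB element, is shown. Each is from RefSeq's promoter windows of GRCh38.p14, 5′ to 3′ on the gene's strand with 25 bases on either side, and capitals mark the match.
CXCL1 (chr4:73869290-73869373, plus strand): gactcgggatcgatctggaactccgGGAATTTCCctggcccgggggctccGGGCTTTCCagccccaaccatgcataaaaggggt
CXCL2 (chr4:74099215-74099297, minus strand): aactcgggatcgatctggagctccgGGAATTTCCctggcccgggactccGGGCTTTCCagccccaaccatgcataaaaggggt
CXCL3 (chr4:74038709-74038792, minus strand): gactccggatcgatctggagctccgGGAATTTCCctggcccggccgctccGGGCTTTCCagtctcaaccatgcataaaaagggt
CXCL5 (chr4:73998734-73998792, minus strand): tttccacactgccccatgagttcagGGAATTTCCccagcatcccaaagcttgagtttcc
CXCL6 (chr4:73836564-73836622, plus strand): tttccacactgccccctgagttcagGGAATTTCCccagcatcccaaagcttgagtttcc
CXCL8 (chr4:73740453-73740511, plus strand): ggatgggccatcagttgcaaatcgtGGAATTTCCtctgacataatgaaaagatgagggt
IL6 (chr7:22727103-22727161, plus strand): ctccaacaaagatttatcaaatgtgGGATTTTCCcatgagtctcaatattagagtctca

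In the 250 bases before the start, on either strand and counting any of a gene's windows, GGNNTTTCC was found in 6 of 6 of these chemokine genes, each time with the letters GGAATTTCC. It was found in 8.01% of the 10578 measured genes with a window and in 6.69% of all 27305 genes in the table. Among measured genes at least 2-fold higher in OIS the share was 11.7%, and among those at least 2-fold lower 7.55%. These are matches of letters and not measured binding. The stretches of CXCL1, CXCL2 and CXCL3 are near-identical, as are those of CXCL5 and CXCL6, so the 6 genes are not independent cases.

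All of these chemokines were bright in OIS, and all but CXCL1 and CXCL8 were near or under the floor in RS. CXCL1 had a signal of 24635 in OIS, 241 in RS and 186 in growing cells, 102-fold higher in OIS than RS. CXCL5, at 10296 in OIS, 46.4 in RS and 121 in growing cells, was 222-fold higher, and its 2 other probe sets also had positive log2 ratios, of 1.28 and 5.61. CXCL2 and CXCL3 were at least 167-fold and at least 199.9-fold higher, with OIS signals of 7577 and 9097, and CXCL6 at least 98.1-fold. CXCL8, the gene of interleukin-8, differed least: its signal was 30857 in OIS, 4186 in RS and 1779.7 in growing cells, 7.37-fold higher, and a second probe set gave a log2 ratio of 5.35. CXCL8 was thus the 1 gene of the set whose RS signal lay more than 2-fold above growing cells. Near-identical stretches among CXCL1, CXCL2 and CXCL3 could let their probes share signal, and CXCL2, CXCL5 and CXCL8 were read by probe sets of the cross-hybridizing kind, whose names end in _x_at.

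Interleukin-1, which triggers NF-kappaB and the secretion of other cytokines, had the highest ratio of any gene above the floor on both arrays. IL1B, its beta form, had a signal of 20515 in OIS, 57.6 in RS and 269 in growing cells, 356-fold higher in OIS, and a second probe set gave a log2 ratio of 8.49 beside 8.48. IL1A, the alpha form, had 10735 in OIS, 41.9 in RS and 89.7 in growing cells, at least 236-fold higher. On the RS array both were below growing cells. The receptors differed less: IL1R1, the signalling receptor, had 3669 in OIS against 2177 in RS, its partner IL1RAP 752 in OIS against 459 in RS, and IL18R1, the interleukin-18 receptor, was at least 2.97-fold higher. IL18 itself went the other way, at 21.1 in OIS against 105 in RS, at least 2.31-fold lower, as did its binding inhibitor IL18BP with a log2 ratio of -0.96. Of 17 listed genes of the family 10 were measured, 3 at least 2-fold higher and 1 lower, median 0.57.

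In prostaglandin synthesis the inducible enzymes were higher in OIS and the constitutive ones alike. PTGS2, the inducible cyclooxygenase, had 19178 in OIS, 149.9 in RS and 96.5 in growing cells, 128-fold higher in OIS than RS, and its second probe set gave a log2 ratio of 6.99. PLA2G4A, the phospholipase that frees arachidonic acid, had 1958 in OIS against 144 in RS and was 13.6-fold higher, and PTGES, which makes prostaglandin E2, was 2.34-fold higher. The constitutive cyclooxygenase PTGS1 had 6354 in OIS against 4623 in RS, within 2-fold. Lower in OIS were PTGER2, a receptor of prostaglandin E2, at 293 in OIS, 833 in RS and 2548 in growing cells, and the prostaglandin carrier SLCO2A1 at 76.3 in OIS against 168 in RS. In all, 3 of 17 measured genes (17.65%, against 5.65% of all) were higher and 2 (11.76%, against 5.43%) lower, and the median was 0.21.

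IL6 and several cytokines beside it were higher in OIS, and the receptor IL6R was lower. IL6 had a signal of 14925 in OIS, 1193 in RS and 753 in growing cells, 12.5-fold higher, so that the RS array lay nearer to growing cells than to OIS. LIF, a cytokine of the IL6 family, had 3530.3 in OIS, 433 in RS and 842 in growing cells, 8.15-fold higher, and IL11, another member, 7626 in OIS against 1994 in RS, 3.82-fold higher. TSLP, an epithelial-type alarm cytokine, had 1894 in OIS, 298 in RS and 1636 in growing cells, which put growing cells near OIS and RS apart. IL32, at 234 in OIS, 60.1 in RS and 224 in growing cells, had the same order. IL24 was at least 11.7-fold higher, CSF3, the granulocyte growth factor, at least 4.20-fold and IL23A at least 2.91-fold, all with RS under the floor. The shared receptor chain IL6ST had 23133 in OIS against 19341 in RS and OSMR 9236 in OIS against 6680.3 in RS. IL6R, the specific IL6 receptor, was 2.29-fold lower and IL12A 2.23-fold lower. Of 18 measured genes 8 (44.44%, against 5.65% of all) were higher by 2-fold or more and 2 (11.11%, against 5.43%) lower. The median was 0.49.

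The other chemokines went to both extremes. CCL20, which attracts dendritic cells and lymphocytes, had 4561 in OIS, 8.3 in RS and 1.3 in growing cells and was at least 100.2-fold higher. CXCL10 and CXCL11, the interferon-inducible T-cell chemokines, had 4212 in OIS against 286 in RS and 369.6 in OIS against 80.0 in RS, 14.7-fold and 4.62-fold higher. CXCL12, the homing chemokine of stromal cells, had 16.2 in OIS, 1479 in RS and 547 in growing cells and was at least 32.5-fold lower in OIS, and its second probe set gave a log2 ratio of -2.12. CXCL12 thus stood above growing cells in RS and under the floor in OIS. CCL2, the monocyte chemokine, was 1.89-fold higher at 5403 in OIS against 2852 in RS, and CCL7 and CCL26 had log2 ratios of -0.00 and 0.12. Of 10 measured genes 3 were higher and 1 lower, median 0.26.

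In the tumor necrosis factor superfamily the ligand TNFSF15 stood alone in size. Its signal was 17619 in OIS, 134 in RS and 164 in growing cells, 132-fold higher, and a second probe set gave a log2 ratio of 6.40 beside 7.04. TNFSF18 was 8.27-fold higher at 852 in OIS against 103 in RS, TNFSF10, the ligand TRAIL, at least 3.19-fold and the receptor TNFRSF9 at least 2.30-fold higher. TNFRSF19, an orphan receptor, had 3839 in OIS, 952 in RS and 4299.8 in growing cells, again with growing cells near OIS. TNFSF4, the ligand OX40L, was 2.68-fold lower at 2541 in OIS against 6802 in RS, and the death receptor FAS had 3001 in OIS against 4451 in RS. TNF and LTA, the founding ligands, were under the floor on both arrays. Of 22 measured genes 5 (22.73%, against 5.65% of all) were higher and 1 (4.55%, against 5.43%) lower, and the median was 0.11.

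Most listed NF-kappaB subunits and feedback genes were higher in OIS, but the subunit RELA was alike on both arrays. Among 22 measured genes, 14 (63.64%, against 5.65% of all) were higher by 2-fold or more and none was lower by as much (5.43% of all). A ratio above 0 was found for 21, beside 6593 of all 13068 measured genes. The median of the 22 was 1.31. NFKBIA, the inhibitor that NF-kappaB induces against itself, had 5830.1 in OIS, 1287 in RS and 2093 in growing cells, 4.53-fold higher. TNFAIP3, the deubiquitinase A20, had 2694 in OIS, 349 in RS and 509 in growing cells, 7.72-fold higher, and NFKBIZ, an atypical inhibitor that is needed for IL6 induction, 10671 in OIS, 2128 in RS and 779.9 in growing cells, 5.02-fold higher. ICAM1, the adhesion molecule that leukocytes bind, had 4335 in OIS, 337 in RS and 349 in growing cells and was 12.9-fold higher, while VCAM1 was 2.36-fold higher. TNFAIP6, a hyaluronan-binding protein, had 1964 in OIS, 83.4 in RS and 729.8 in growing cells, 23.6-fold higher. Among the subunits, REL was 2.79-fold higher, NFKB1 2.61-fold and RELB 2.18-fold, while RELA, the main activating subunit, had a log2 ratio of 0.00. NFKB2 had a log2 ratio of 0.48, and its second probe set gave 1.41. The brake of receptor signalling IRAK3 was at least 5.11-fold higher, its activating relative IRAK2 2.61-fold, the cytokine-induced gene TNFAIP2 5.05-fold, NFKBIE 3.18-fold and mitochondrial superoxide dismutase SOD2 2.09-fold higher. GGNNTTTCC was found in 12 of the 20 members with a promoter window, 60% beside 8.01% of all measured genes, among them NFKBIA, TNFAIP3, NFKBIZ, ICAM1, NFKB1 and VCAM1. The list was drawn up as NF-kappaB subunits and feedback genes, so a high share could be foreseen from its choice. What part the element has in these ratios was not tested.

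The host transcript of miR-146a, a microRNA known to be induced by NF-kappaB and to silence TRAF6 and IRAK1, was among the genes farthest apart. MIR146A, read on chromosome 5 by 1 probe set of the host transcript and not of the mature microRNA, had 1339.6 in OIS, 28.0 in RS and 2.0 in growing cells and was at least 29.4-fold higher. Both mature arms are shown from RefSeq (GRCh38.p14, chr5:160485372-160485393 and chr5:160485408-160485429, plus strand), with bases 2 to 8, the seed that pairs with targets, in capitals.
hsa-miR-146a-5p: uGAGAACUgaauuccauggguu
hsa-miR-146a-3p: cCUCUGAAauucaguucuucag
TRAF6 and IRAK1, picked as known targets after this value was seen, had 279 in OIS against 509 in RS and 5264 in OIS against 4988 in RS, log2 ratios of -0.87 and 0.08.

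**Figure D2:**
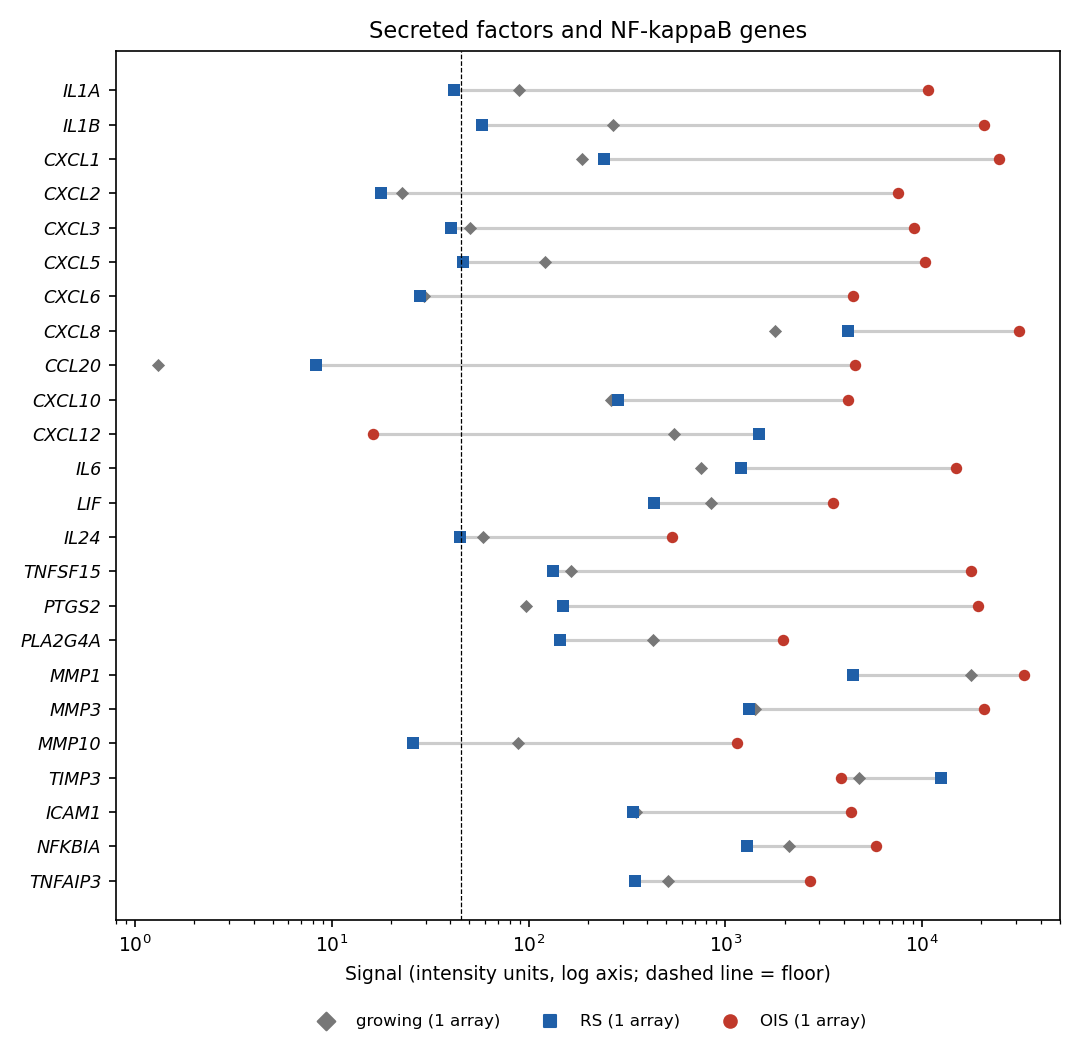
Signals of 24 secreted-factor and NF-kappaB genes on the 3 arrays (horizontal, intensity units, log axis), 1 row per gene, 1 symbol per array, with the floor of 45.5 dashed. OIS lies far to the right of RS for every gene drawn except CXCL12 and TIMP3.

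Matrix-degrading proteases were higher in OIS and their inhibitor TIMP3 lower. MMP1, the interstitial collagenase, had 33064 in OIS, 4444 in RS and 17604 in growing cells, 7.44-fold higher, MMP3, stromelysin-1, 20539 in OIS, 1322 in RS and 1417 in growing cells, 15.5-fold higher, and MMP10, stromelysin-2, 1144 in OIS, 25.9 in RS and 87.9 in growing cells, at least 25.1-fold higher. MMP1 was thus lower in RS than in growing cells, while MMP3 in RS and in growing cells was alike. MMP12, MMP7, MMP11 and the membrane-bound MMP14 were 4.65-fold, at least 4.65-fold, 2.87-fold and 2.44-fold higher, and MMP2, gelatinase A, had a log2 ratio of 0.52. For MMP11 a second probe set gave a log2 ratio of only 0.03. TIMP3, which binds the matrix, had 3849 in OIS, 12505 in RS and 4769 in growing cells, 3.25-fold lower, and 3 further probe sets gave log2 ratios of -1.92 to -1.59. TIMP1 and TIMP2 were within 2-fold, at 0.26 and -0.22. Of 18 measured genes 7 (38.89%, against 5.65% of all) were higher and 1 (5.56%, against 5.43%) lower, median 0.69.

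Of the plasminogen system little differed. The activators PLAU and PLAT had 27300.0 in OIS against 25096 in RS and 17237 in OIS against 11199 in RS, and the receptor PLAUR 5686 in OIS against 6556 in RS, log2 ratios of 0.12, 0.62 and -0.21. SERPINF1, which encodes an antiangiogenic serpin, was 3.62-fold higher at 1089 in OIS against 301 in RS. MET, the receptor of hepatocyte growth factor, had 272 in OIS, 3223 in RS and 2146 in growing cells and was 11.8-fold lower, but its 2 other probe sets gave log2 ratios of only -0.83 and -0.16. HGF, its ligand, had a log2 ratio of 0.79. Of 7 measured genes 1 (14.29%, against 5.65% of all) was higher and 1 (14.29%, against 5.43%) lower, and the median was 0.12.

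Growth factors differed in both directions, within families too. EREG, an EGF receptor ligand, had 18659 in OIS, 2328 in RS and 949.9 in growing cells, 8.01-fold higher in OIS, VEGFA, the main angiogenic factor, 8027 in OIS, 1913 in RS and 2507 in growing cells, 4.20-fold higher, and the VEGF receptor FLT1 2688 in OIS, 1165 in RS and 242 in growing cells, 2.31-fold higher. IGFBP1, an IGF-binding protein, was under the floor in RS and had 1165 in OIS, at least 25.6-fold higher, and the dim IGFBP2 was 2.30-fold higher. Of the fibroblast growth factors 4 were on the other side: FGF1 had 88.4 in OIS, 999 in RS and 324 in growing cells, 11.3-fold lower, FGF5 361 in OIS against 1664 in RS, 4.61-fold lower, FGF7 311 in OIS against 882 in RS and FGF9 61.3 in OIS against 173 in RS, whereas FGF2 had a log2 ratio of 0.73. IGFBP3, which binds IGF and is a target of TGF-beta signalling, had 10075 in OIS, 22949.6 in RS and 9989.8 in growing cells, 2.28-fold lower, and the IGF receptor IGF1R was 2.05-fold lower. The 2 further probe sets of IGF1R gave log2 ratios of only -0.66 and -0.30, and the second of FGF9 gave -0.29. ERBB2 and EGF were 2.16-fold and at least 3.49-fold lower. The counts were 1 higher and 2 lower of 8 EGF family genes (median -0.21), 2 and 4 of 20 FGF, VEGF and PDGF genes (median -0.11), and 2 and 2 of 10 IGF genes (median -0.10).

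The feedback genes that ERK signalling induces were mixed, with more of them higher in OIS. DUSP4 and DUSP6, phosphatases that switch ERK off, had 1445 in OIS, 236 in RS and 48.5 in growing cells and 18717 in OIS, 8209 in RS and 4633 in growing cells, 6.11-fold and 2.28-fold higher. SPRY1 and SPRED2, inhibitors of Ras signalling, were 3.59-fold and 2.22-fold higher, DUSP2 at least 2.74-fold and DUSP16 2.07-fold. DUSP1 and DUSP10, which act mainly on the stress kinases JNK and p38, were lower in OIS: DUSP1 had 3712 in OIS, 10375 in RS and 3198 in growing cells, 2.80-fold lower, and DUSP10 1258 in OIS, 3059.6 in RS and 1815 in growing cells, 2.43-fold lower. Of 16 measured genes 6 (37.5%, against 5.65% of all) were higher and 2 (12.5%, against 5.43%) lower, median 0.45. The kinase cascade itself hardly differed: MAP2K1 had 3412 in OIS against 2503 in RS, MAP2K2 1249 in OIS against 1146 in RS and MAPK3 352 in OIS against 456 in RS. Of 15 measured genes of the Ras, Raf, MEK and ERK list, HRAS was higher, RRAS2 at 2078 in OIS against 5230.1 in RS was 2.52-fold lower, and the median was -0.27. HRAS and RRAS2 were each 6.67% of the list, against 5.65% higher and 5.43% lower among all measured genes.

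Immediate early transcription factors differed in both directions, more often on the side of OIS. Among 30 measured genes, 12 were higher in OIS by 2-fold or more, against 5.65% of all measured genes, and 4 lower, against 5.43%. The share past 2-fold was thus above that of all measured genes on both sides, and more so on the side of OIS. The list median was 0.66. EGR1, EGR3 and EGR4, zinc-finger factors under ERK control, were 3.28-fold, 6.15-fold and at least 8.54-fold higher, with EGR1 at 8699 in OIS, 2652 in RS and 2558 in growing cells. NR4A3, an orphan nuclear receptor, had 1211 in OIS, 102 in RS and 285 in growing cells, 11.8-fold higher, and FOS, ATF3 and MAFF of the AP-1 group were at least 4.72-fold, 3.73-fold and 2.61-fold higher. IER3 had 30045 in OIS, 4979 in RS and 5885 in growing cells, 6.03-fold higher. The ETS factors ETV4, ETV1 and ETS2 were 4.33-fold, 2.41-fold and 2.14-fold higher, and PHLDA1 2.27-fold. Lower in OIS were the Krüppel-like factors KLF4, at 206 in OIS, 1047 in RS and 720.4 in growing cells, KLF2, at 324 in OIS, 1388 in RS and 785 in growing cells, and KLF6, at 3385 in OIS, 9578 in RS and 6573 in growing cells, by 5.08-fold, 4.29-fold and 2.83-fold. For KLF2 a second probe set gave a log2 ratio of -0.06. FOSL1, an AP-1 partner, was 2.23-fold lower, although FOS was higher, and JUN and MYC had log2 ratios of -0.04 and -0.43. NR4A1, a relative of NR4A3, had a log2 ratio of -0.42.

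Interferon-stimulated genes were, as a group, modestly higher in OIS. Among 40 measured genes, 14 (35.0%, against 5.65% of all) were higher by 2-fold or more and none lower by as much (5.43% of all). A ratio above 0 was found for 31, beside 6593 of all 13068 measured genes, and the list median was 0.70. BST2, which tethers budding viruses, had 203 in OIS, 34.9 in RS and 6.6 in growing cells, at least 4.45-fold higher, and IRF1, the factor that drives many of these genes, 1816 in OIS, 517 in RS and 539.6 in growing cells, 3.51-fold higher. IFIH1, the RNA sensor MDA5, had 500.2 in OIS, 137 in RS and 177 in growing cells, 3.65-fold higher, and XAF1 1001 in OIS, 262 in RS and 144 in growing cells, 3.83-fold higher. ISG20, IFI44, EPSTI1, IFI27, IFI35, MX2, PARP14, USP18, OAS3 and IFIT3 were 2.19-fold to at least 4.39-fold higher. Other classical members did not differ by this much: ISG15 had 9712 in OIS, 6546 in RS and 2859 in growing cells, IFIT1 698 in OIS, 637 in RS and 471 in growing cells and MX1 417 in OIS, 209.7 in RS and 24.5 in growing cells. At the low end SAMD9, RSAD2 and IFITM2 had log2 ratios of -0.54, -0.52 and -0.41. For ISG15, MX1 and IFI6 both senescent arrays were more than 2-fold above growing cells. Of the genes past 2-fold, second probe sets gave log2 ratios of only 0.21 for EPSTI1, 0.70 for ISG20 and 0.87 for IFI44. The 2 further probe sets of XAF1 gave 0.22 and 1.24.

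Genes of antigen presentation by HLA class I had mostly small differences. Past 2-fold were 3 of 16 measured genes (18.8%, against 5.65% higher among all measured genes), and each of them was higher in OIS: ERAP2, which trims peptides, at 2.18-fold, and the immunoproteasome subunits PSMB8 and PSMB9 at 2.03-fold and 2.02-fold. PSMB8 fell short of 2-fold with quantile normalization, and PSMB9 with a pseudocount of 16 in place of the floor. HLA-B had 11933 in OIS, 8878 in RS and 8046 in growing cells and HLA-C 15420.1 in OIS, 12776 in RS and 10518 in growing cells, and B2M, the light chain, 34259 in OIS against 33950.4 in RS. The median was 0.46, and 15 of 16 genes had a ratio above 0, beside 6593 of all 13068 measured genes.

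On the side of RS, genes of BMP signalling stood out. BMPs are growth factors that act through SMAD1, SMAD5 and SMAD9, and the ID genes, inhibitors of differentiation factors, are their direct targets. NOG, the secreted BMP antagonist noggin, had the lowest ratio of all genes above the floor on both arrays, with 135 in OIS, 4506 in RS and 689.6 in growing cells, 33.3-fold lower in OIS. ID1 had 1764 in OIS, 9884 in RS and 1649.8 in growing cells, 5.60-fold lower, ID2 1034 in OIS, 7137 in RS and 2546 in growing cells, 6.90-fold lower, ID3 1778 in OIS, 5529.8 in RS and 1492 in growing cells, 3.11-fold lower, and ID4 64.0 in OIS, 406 in RS and 82.0 in growing cells, 6.34-fold lower. All 4 ID genes were thus more than 2-fold higher in RS than on either other array. BMPER, a BMP-binding protein, was 7.16-fold lower and SMAD9 5.27-fold lower. The ligands BMP2 and BMP4 went the other way: BMP2 had 17049 in OIS, 1371 in RS and 1034 in growing cells, 12.4-fold higher, and BMP4 910.0 in OIS, 166 in RS and 407 in growing cells, 5.49-fold higher. SMAD1 had 6165 in OIS, 656 in RS and 2129.9 in growing cells, 9.40-fold higher, with 2 further probe sets at 0.20 and 2.99. The ligands and their targets therefore stood on opposite sides. Of 20 measured genes 3 (15.0%, against 5.65% of all) were higher and 7 (35.0%, against 5.43%) lower, with a median of -0.46.

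Contractile genes were lower in OIS than in RS. Of 36 measured contractile and smooth muscle genes 9 were at least 2-fold lower, against 5.43% of all measured genes, and 2 higher, and 31 had a ratio below 0, with a median of -0.56. TAGLN, the actin-binding protein transgelin, had 6804 in OIS, 22028 in RS and 14190.0 in growing cells, 3.24-fold lower, and CNN1, calponin, 1084 in OIS, 5749.6 in RS and 2442 in growing cells, 5.30-fold lower. ACTG2, smooth muscle gamma-actin, had 10811 in OIS, 27381 in RS and 18786 in growing cells, 2.53-fold lower, and ACTC1, cardiac alpha-actin, 60.4 in OIS, 640.5 in RS and 64.1 in growing cells, 10.6-fold lower. SYNPO2, an actin-bundling protein of the Z-disc, had 86.8 in OIS, 1686 in RS and 207 in growing cells, 19.4-fold lower, and 4 further probe sets gave log2 ratios of -4.01 to -1.60. LMOD1, LDB3, SYNPO and ACTN4 were 5.12-fold, 3.55-fold, 2.61-fold and 2.30-fold lower, but second probe sets of LMOD1, LDB3 and SYNPO gave log2 ratios of -0.65, -0.62 and -0.60. ACTA2, the smooth muscle actin that marks myofibroblasts, had 16060.5 in OIS, 27518 in RS and 15226 in growing cells, within 2-fold at a log2 ratio of -0.78. A second probe set of ACTA2 gave -1.14, past 2-fold. For TAGLN, CNN1 and ACTG2 growing cells lay between RS and OIS, and for ACTA2 growing cells were close to OIS. PDLIM3, a Z-disc protein, was 9.06-fold higher in OIS with a second probe set at 0.24, and MYOCD, a coactivator of serum response factor, 2.49-fold higher. SRF itself and its coactivators MRTFA and MRTFB had log2 ratios of -0.11, 0.02 and 0.17.

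The CArG box, CC and GG around 6 bases of A or T, is the element that serum response factor is known to bind in such genes. In the 250 bases before the start on either strand it was found in 11 of the 32 contractile genes with a window, 34.4% beside 1.56% of all measured genes and 1.44% of all genes in the table. Among all measured genes at least 2-fold lower in OIS the share was 1.8%, and among those at least 2-fold higher 2.8%. The contractile list holds genes of the kind in which this element is known, so its high share could be foreseen. What part the element has in the ratios was not tested. The stretches of ACTC1 and ACTG2, a pair of actins lower in OIS, are shown from RefSeq (GRCh38.p14) with the match in capitals and 25 bases on either side.
ACTC1 (chr15:34795624-34795683, minus strand): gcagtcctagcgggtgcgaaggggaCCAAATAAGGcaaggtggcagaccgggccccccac
ACTG2 (chr2:73892873-73892969, plus strand): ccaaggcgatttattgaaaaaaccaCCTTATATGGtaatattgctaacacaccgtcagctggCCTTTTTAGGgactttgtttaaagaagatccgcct
Other genes with a match, such as ACTN1 and MYLK, had log2 ratios of -0.11 and -0.45, so members with the element both did and did not pass 2-fold.

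Targets of the mechanosensitive coactivator YAP and its TEAD partners were mostly a little lower in OIS. ANKRD1, which is induced by stretch and is also a muscle gene, was the exception in size at 72.0 in OIS, 1726 in RS and 55.1 in growing cells, 24.0-fold lower. The best known targets CCN2 and CCN1 had 17914 in OIS, 25695 in RS and 14339 in growing cells and 12367 in OIS, 17833 in RS and 15567 in growing cells, log2 ratios of -0.52 and -0.53. CRIM1, MYOF and IGFBP3 were 2.13-fold, 2.20-fold and 2.28-fold lower and FJX1 2.29-fold higher. Of 29 measured genes 4 (13.79%, against 5.43% of all) were lower and 1 (3.45%, against 5.65%) higher. A ratio below 0 was found for 23, beside 6472 of all 13068 measured genes, and the list median was -0.36. YAP1 itself, at 11168 in OIS against 10075 in RS, and its relative WWTR1 (TAZ), at 6829 in OIS against 7181 in RS, had log2 ratios of 0.15 and -0.07.

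Of 26 TGF-beta and activin genes 3 passed 2-fold, 11.5% beside 11.1% of all measured genes, each on the side of OIS. INHBA, the activin A subunit, had 32485 in OIS, 15566 in RS and 9809 in growing cells, 2.09-fold higher, LRRC32, which anchors latent TGF-beta, 744 in OIS, 197 in RS and 139 in growing cells, 3.77-fold higher, and the activin receptor ACVR2B was 2.88-fold higher. TGFB1 had 503 in OIS against 273 in RS and TGFB2 1882 in OIS against 3429 in RS, log2 ratios of 0.88 and -0.87, and the median was 0.03. Notch genes differed in both directions. Of the targets HEY1 had 1467 in OIS, 219.6 in RS and 124 in growing cells, 6.68-fold higher, and HES1 728 in OIS, 194 in RS and 152 in growing cells, 3.74-fold higher, while HES4 and NRARP had log2 ratios of -0.01 and -0.13. The receptor gene NOTCH2 was 2.09-fold lower at 2798 in OIS against 5838 in RS, and the ligand JAG1 had a log2 ratio of -0.05. DNER, a neuronal Notch ligand, was 3.09-fold lower, and LFNG, which modifies the receptors, at least 2.24-fold higher. Of 18 measured Notch genes 3 (16.67%, against 5.65% of all) were higher and 2 (11.11%, against 5.43%) lower, and the median was 0.04.

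WNT genes differed in both directions, and so did the secreted antagonists. DKK1, which blocks the WNT coreceptor, had 750.5 in OIS, 8349 in RS and 4462 in growing cells, 11.1-fold lower, and SFRP1, which binds WNT proteins, 3539 in OIS, 11722 in RS and 14402 in growing cells, 3.31-fold lower. SFRP1 in RS was thus near growing cells, while DKK1 in RS was above them. LEF1, a nuclear effector of the pathway, had 898 in OIS, 67.5 in RS and 182 in growing cells, 13.3-fold higher, and AXIN2, its feedback target, 152 in OIS, 48.2 in RS and 81.9 in growing cells, 3.16-fold higher, with a second probe set at -0.03. The ligand WNT16 had 1028 in OIS, 4026 in RS and 766 in growing cells, 3.92-fold lower, and WNT5B was 2.88-fold lower, whereas WNT7B and WNT2 were at least 3.46-fold and 2.15-fold higher and WNT5A had a log2 ratio of 0.41. KREMEN1, a DKK1 receptor, was 4.93-fold higher and NKD2 2.13-fold higher. Of 15 measured genes 6 were higher and 4 lower, median 0.88. The antagonists FRZB, DKK2 and DKK3 had log2 ratios of 0.94, 0.88 and -0.20.

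**Figure D3:**
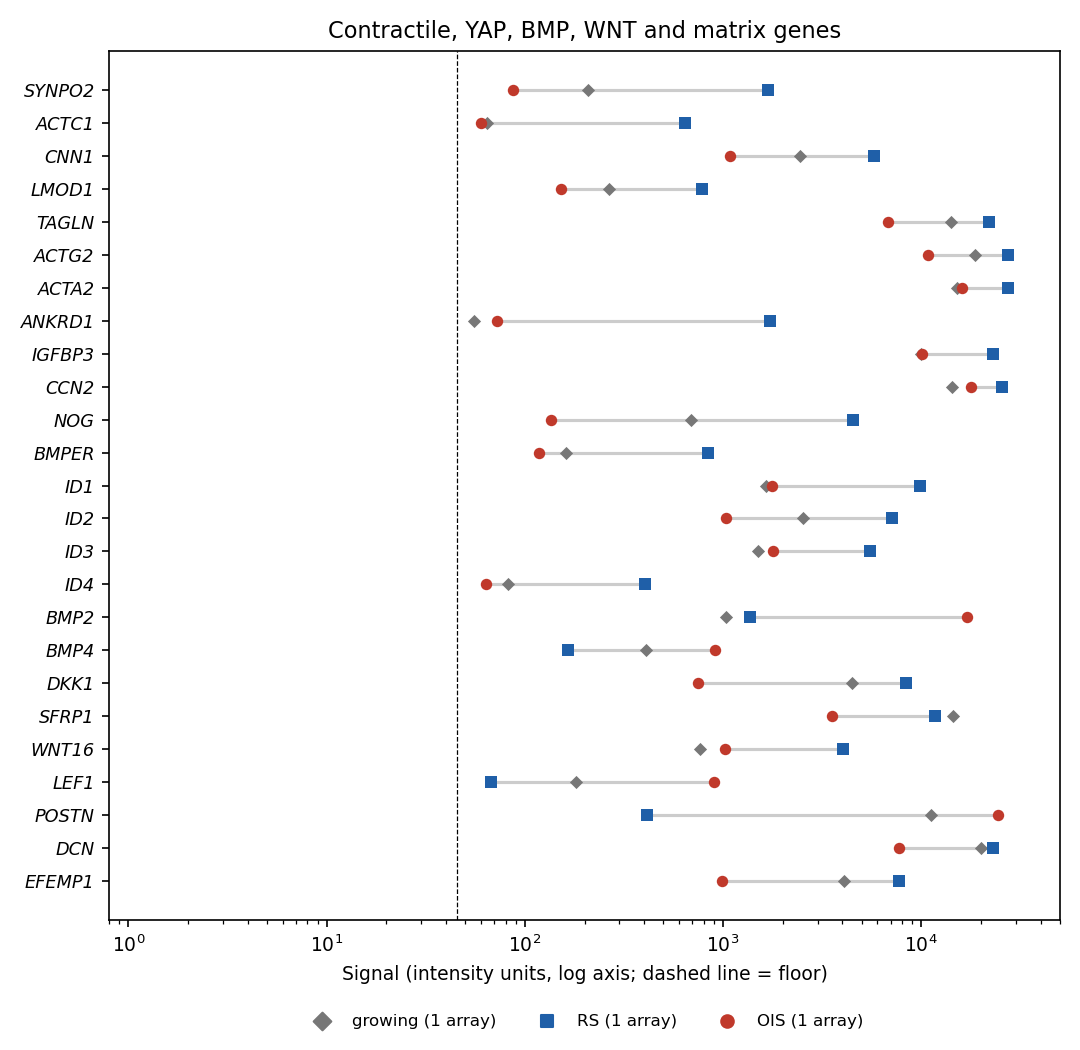
Signals of 25 contractile, YAP, BMP, WNT and matrix genes on the 3 arrays (horizontal, intensity units, log axis), 1 row per gene, 1 symbol per array, with the floor of 45.5 dashed. RS lies to the right of OIS for every gene drawn except BMP2, BMP4, LEF1 and POSTN.

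Pregnancy-specific glycoproteins, secreted immunoglobulin-like proteins best known from placenta and encoded side by side on chromosome 19, were lower in OIS. All 9 measured members had a ratio below 0 and 8 were at least 2-fold lower (88.89%, against 5.43% of all measured genes), and the median was -2.30. PSG5 had 173 in OIS, 2118 in RS and 672 in growing cells, 12.2-fold lower, PSG4 813 in OIS, 4183 in RS and 1671 in growing cells, 5.14-fold lower, PSG1 507 in OIS, 2489.5 in RS and 1110.4 in growing cells, 4.91-fold lower, and PSG9 250.0 in OIS, 1818 in RS and 664 in growing cells, 7.27-fold lower. PSG7, PSG2 and PSG3 were 4.49-fold, 3.91-fold and 2.11-fold lower. Growing cells lay between RS and OIS for PSG5, PSG4, PSG1 and PSG9. The members are near-identical copies, so their probe sets may share signal and the count is not one of independent genes. For PSG6, whose main probe set gave -3.18, another above the floor gave 0.19.

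Collagens of types I and III were within 2-fold, and other collagens differed in both directions, more often on the side of OIS. COL1A1 and COL1A2, type I collagen, had log2 ratios of 0.09 and 0.10, and COL3A1 0.59. COL10A1, the collagen of cartilage turning to bone, had 2751 in OIS, 42.0 in RS and 49.8 in growing cells, at least 60.5-fold higher, and COL5A3 507 in OIS, 53.6 in RS and 237 in growing cells, 9.46-fold higher. COL7A1, of anchoring fibrils, COL6A2 and the basement membrane chain COL4A6 were 3.31-fold, 3.30-fold and 2.98-fold higher, and COL21A1 at least 3.69-fold. COL11A1 and COL14A1 were 2.25-fold and at least 3.56-fold lower, but a second probe set of COL14A1 gave a log2 ratio of -0.38. Of 26 measured collagens 6 (23.08%, against 5.65% of all measured genes) were higher and 2 (7.69%, against 5.43%) lower, median 0.36.

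Of the matricellular and elastic fibre proteins periostin had the largest difference. POSTN, a matricellular protein of wounds and fibrosis, had 24524 in OIS, 412 in RS and 11197 in growing cells, 59.5-fold higher in OIS than RS, and 2 further probe sets gave 0.70 and 7.33. Here the RS array was the one that stood apart, at 412 beside 11197 in growing cells. SPP1, osteopontin, was at least 9.25-fold higher, CCN4 3.97-fold, MFAP2 3.32-fold, THBS2 2.62-fold, TNC, tenascin-C, 2.17-fold and EMILIN1 2.09-fold higher. The 2 further probe sets of TNC gave log2 ratios of only 0.17 and 0.66. EFEMP1, fibulin-3, had 984 in OIS, 7751 in RS and 4078 in growing cells, 7.87-fold lower, with a second probe set at -3.14, and the crosslinking enzyme LOXL1 was 2.05-fold lower. Fibronectin (FN1) and SPARC had log2 ratios of 0.09 and 0.01. Of 28 measured genes 7 were higher and 2 lower, and the median was -0.15.

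Small proteoglycans were lower in OIS where they differed, apart from biglycan. DCN, decorin, had 7746 in OIS, 22971 in RS and 20075 in growing cells, 2.97-fold lower, and LUM, lumican, 10702 in OIS, 23798 in RS and 13729 in growing cells, 2.22-fold lower, while BGN was 2.61-fold higher. CEMIP, which breaks down hyaluronan, had 337 in OIS, 1724 in RS and 5210.5 in growing cells, 5.11-fold lower, and HAS2, which makes it, a log2 ratio of 0.75. With TNFAIP6 the list of 15 measured genes had 2 higher and 3 lower, median -0.12. Of 13 ADAMTS proteases ADAMTS3 and ADAMTS12 were 2.41-fold and 2.19-fold higher and ADAMTS1, ADAMTS5 and ADAMTSL1 2.33-fold, 2.05-fold and at least 5.86-fold lower, median 0.20. These were 15.38% higher and 23.08% lower, against 5.65% and 5.43% of all measured genes. The 3 further probe sets of ADAMTSL1 gave log2 ratios of only -0.52 to -0.18. Of 18 integrins and cadherins the collagen receptors ITGA1 and ITGA11 were 2.67-fold and 2.18-fold higher and the laminin receptor chains ITGA6 and ITGA3 3.32-fold and 2.67-fold lower. ITGB8, which activates latent TGF-beta, had 2207 in OIS, 80.3 in RS and 808 in growing cells, 27.5-fold higher, but its second probe set gave a log2 ratio of 0.40. In that list 3 genes (16.67%, against 5.65% of all) were higher and 2 (11.11%, against 5.43%) lower.

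Messenger RNA of the cell division machinery was low to a like degree in the 2 states. Of 49 measured genes of G2, mitosis and cytokinesis none differed by 2-fold, with log2 ratios from -0.95 for CDK1 to 0.98 for KIF20A and a median of -0.19, where 11.1% of all measured genes differed by 2-fold. CCNB1, cyclin B1, had 1412 in OIS, 1388 in RS and 8749 in growing cells, TOP2A, which untangles chromosomes, 873 in OIS, 1163 in RS and 7406 in growing cells, and the proliferation marker MKI67 143 in OIS, 194 in RS and 815 in growing cells. The senescent arrays both lay far below growing cells for these genes, and OIS was the lower for 33 of the 49. CDK1, the mitotic kinase, had 802 in OIS, 1552 in RS and 5886 in growing cells, and NUF2, of the kinetochore, 209 in OIS, 399.6 in RS and 2304 in growing cells, which were the farthest on the side of RS.

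Of 44 DNA replication and S phase genes 1 (2.27%, against 5.65% of all measured genes) was higher and 2 (4.55%, against 5.43%) lower. The median was -0.25, and 33 had a ratio below 0, beside 6472 of all 13068. CDT1, which licenses origins, had 63.6 in OIS, 217 in RS and 1364 in growing cells, 3.42-fold lower, although a second probe set gave a log2 ratio of 0.32, and CCNE2, cyclin E2, had 166 in OIS, 362 in RS and 1216 in growing cells, 2.18-fold lower, with a second probe set at -0.13. MCM2 and MCM6 of the replicative helicase had 241 in OIS, 275 in RS and 1384 in growing cells and 902 in OIS, 1286 in RS and 4392 in growing cells. E2F2, a factor that drives S phase genes, was at least 2.35-fold higher, close to the floor in both. Among 15 homologous recombination and Fanconi genes BARD1, the partner of BRCA1, was 2.08-fold lower and BRCA1 had a log2 ratio of -0.95, with a median of -0.40 and none higher. BARD1, the 1 past 2-fold, made up 6.67%, against 5.43% lower among all measured genes.

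Among the brakes of the cycle CDKN2B differed most. CDKN2B, which encodes p15, had 7373 in OIS, 1230.0 in RS and 743 in growing cells, 5.99-fold higher, and a second probe set gave 1.24 beside 2.58. CDKN2A, which encodes p16 and ARF, had 1040.0 in OIS, 1115 in RS and 432 in growing cells, a log2 ratio of -0.10, so that both senescent arrays were above growing cells by similar amounts. CDKN1A, which encodes p21, had 15759.9 in OIS, 8247 in RS and 6064 in growing cells, 1.91-fold higher and short of 2-fold. CDKN1C, p57, was 2.19-fold higher with further probe sets from -0.84 to 0.80. CCND2, cyclin D2, had 752 in OIS, 5349 in RS and 414 in growing cells, 7.12-fold lower, with 3 further probe sets from -1.86 to -1.06, and CDK6, its kinase partner, 2467 in OIS, 5528 in RS and 3977 in growing cells, 2.24-fold lower. The 6 further probe sets of CDK6 gave -1.33 to -0.05. CCND1 had 15259.7 in OIS against 23467 in RS, and RBL1, of the retinoblastoma family, was 2.18-fold lower. Of 16 measured genes 2 (12.5%, against 5.65% of all) were higher and 3 (18.75%, against 5.43%) lower, median -0.08.

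Genes of the nuclear lamina and of chromatin architecture that are known to be lost in senescence were low on both senescent arrays. LMNB1, lamin B1, had 450.2 in OIS, 410.5 in RS and 4163 in growing cells, a log2 ratio of 0.13, and HMGB2, a chromatin-bending protein, 2476 in OIS, 1925 in RS and 15068 in growing cells, 0.36. EZH2, the Polycomb methyltransferase, had 328 in OIS, 256 in RS and 1151 in growing cells. KMT5A, which methylates histone H4 at lysine 20, had 431 in OIS, 584 in RS and 939 in growing cells, a log2 ratio of -0.44. All 34 measured genes were within 2-fold, with a median of 0.03. The lowest ratios were those of SUV39H1 at -0.80, LMNA, lamins A and C, at -0.78, and SUN1, of the nuclear envelope, at -0.71.

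**Figure D4:**
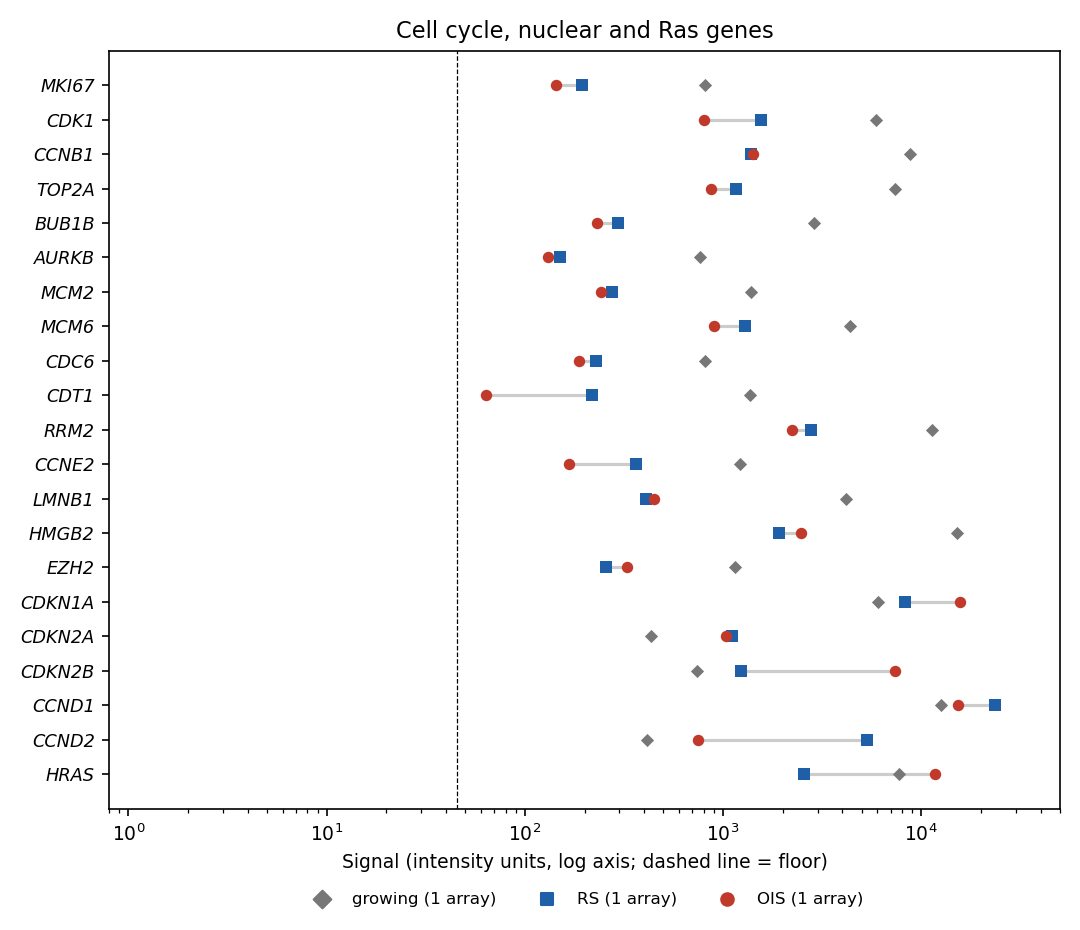
Signals of 21 cell cycle, nuclear and Ras genes on the 3 arrays (horizontal, intensity units, log axis), 1 row per gene, 1 symbol per array, with the floor of 45.5 dashed. For MKI67 through EZH2, apart from CDT1 and CCNE2, the OIS and RS symbols lie close together, left of growing cells. CDKN2B, CCND2 and HRAS are the genes drawn below them with the widest gap between OIS and RS.

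Amino acid stress genes passed 2-fold on the side of OIS more often than all genes, and protein folding genes did not. Of 25 measured targets of ATF4, the stress factor that turns on amino acid supply, 7 were higher in OIS by 2-fold or more and none lower. These 7 were 28.0%, against 5.65% of all measured genes, and the list median was 0.43. DDIT4, an inhibitor of mTOR, had 4343 in OIS, 689.7 in RS and 3182 in growing cells, 6.30-fold higher, DDIT3 (CHOP) 1701 in OIS, 529 in RS and 878 in growing cells, 3.21-fold higher, and ASNS, asparagine synthetase, 4444 in OIS, 1628 in RS and 6732 in growing cells, 2.73-fold higher. For DDIT4 and ASNS growing cells lay within 2-fold of OIS and RS was the lower. TRIB3, VLDLR, PHGDH and SHMT2 were 3.37-fold, 2.53-fold, 2.13-fold and 2.01-fold higher. Of 23 genes of the unfolded protein response EDEM1, at 2.29-fold, passed 2-fold (4.35%, against 5.65% of all measured genes). A ratio above 0 was found for 19 of 23, median 0.26. Oxidative phosphorylation subunits, at 27 of 35, and ribosomal protein genes, at 26 of 34, were also mostly above 0. HSPA5, the main chaperone of the endoplasmic reticulum, had 29117 in OIS, 20323 in RS and 19813 in growing cells.

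Lysosomal genes, a class often raised in senescent cells, were alike apart from a few cathepsins. CTSS, cathepsin S, had 1702 in OIS, 152 in RS and 133 in growing cells, 11.2-fold higher, CTSH 499 in OIS, 68.7 in RS and 153 in growing cells, 7.26-fold higher, and CTSK, a collagen-cleaving cathepsin, 5523 in OIS, 1888 in RS and 1040.0 in growing cells, 2.92-fold higher. GLA was 2.19-fold higher, none of 33 was 2-fold lower, and the median was 0.06. The 4 higher genes were 12.12%, against 5.65% of all measured genes. LAMP1 and CD63, membrane proteins of the compartment, had log2 ratios of 0.04 and -0.05.

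Antioxidant and metabolic genes mostly matched. NQO1, a target of NRF2, had 11680.2 in OIS, 5822 in RS and 15100.3 in growing cells, 2.01-fold higher, while GPX3 and SOD3, secreted antioxidant enzymes, were at least 4.41-fold and at least 3.05-fold lower in OIS, where they were under the floor. Of 25 measured NRF2 and antioxidant genes 2 (8.0%, against 5.65% of all) were higher and 2 (8.0%, against 5.43%) lower, and the median was -0.15. In glycolysis PFKFB4 and ALDOC were 2.05-fold and 2.01-fold higher and the glucose transporter SLC2A1, at 1178 in OIS, 2678 in RS and 1726 in growing cells, 2.27-fold lower among 25, median 0.03. These were 8.0% higher and 4.0% lower, against 5.65% and 5.43% of all measured genes. In cholesterol synthesis INSIG1, which holds back the pathway, was 3.46-fold higher at 7574 in OIS, 2192 in RS and 4764 in growing cells, the 1 of 18 past 2-fold (5.56%, against 5.65% higher among all measured genes), with a median of 0.06. All 35 subunits of oxidative phosphorylation and all 34 ribosomal protein genes were within 2-fold, with medians of 0.13 and 0.04. Among ribosomal protein genes RPLP2, a dim probe set at 152 in OIS against 84.7 in RS, was the only one beyond a log2 ratio of 0.24 in size.

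Of factors that set cell identity, adipogenic regulators differed in both directions. PPARG, the master factor of fat cells, had 71.7 in OIS, 515 in RS and 779 in growing cells, 7.18-fold lower, while CEBPD, an inflammatory C/EBP factor, had 3482 in OIS, 677 in RS and 2399.8 in growing cells, 5.15-fold higher, and CEBPB, which drives IL6 in senescence, 14838 in OIS, 7961 in RS and 7916 in growing cells. FABP5 and KLF15 were 3.21-fold and at least 2.90-fold higher and FABP3 2.43-fold lower, 3 and 2 of 12, with a median of 0.45. Of 19 measured HOX genes and lung fibroblast factors 3 passed 2-fold, each on the side of OIS, 15.8% beside 5.65% of all measured genes, and the median was 0.17. TWIST1 and TBX3 were 3.49-fold and 2.71-fold higher, MEOX1 at least 2.59-fold, and the lung mesenchyme factor FOXF1 had 13278 in OIS against 9657 in RS.

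Among guidance genes TENM1, a teneurin of the cell surface, had 87.7 in OIS, 1191 in RS and 93.8 in growing cells, 13.6-fold lower, and PLXNA2, a semaphorin receptor, was 2.93-fold lower. UNC5B, a netrin receptor, was 4.34-fold higher, EPHA5, SEMA7A, EFNA5, SEMA3F, ROBO2 and SEMA6D were 2.01-fold to at least 2.82-fold higher, and the 2 other probe sets of SEMA3F had negative log2 ratios of -0.24 and -0.17. The list had 7 of 28 genes higher and 2 lower, and the median was 0.23. Of 7 smooth and skeletal muscle lineage markers RGS5, of pericytes, was 2.40-fold higher and CSPG4 lower at 220.0 in OIS against 440.1 in RS, and the lineage factors MYOD1 and MYOG were under the floor on both arrays. Their median was -0.17, with 2 (28.57%, against 5.65% of all) higher and 2 (28.57%, against 5.43%) lower. Of 14 fibroblast markers PDPN had 556 in OIS, 52.2 in RS and 55.9 in growing cells, 10.6-fold higher, DCN and LUM were lower, and the median was 0.05. These were 7.14% higher and 14.29% lower, against 5.65% and 5.43% of all measured genes.

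**Figure D5:**
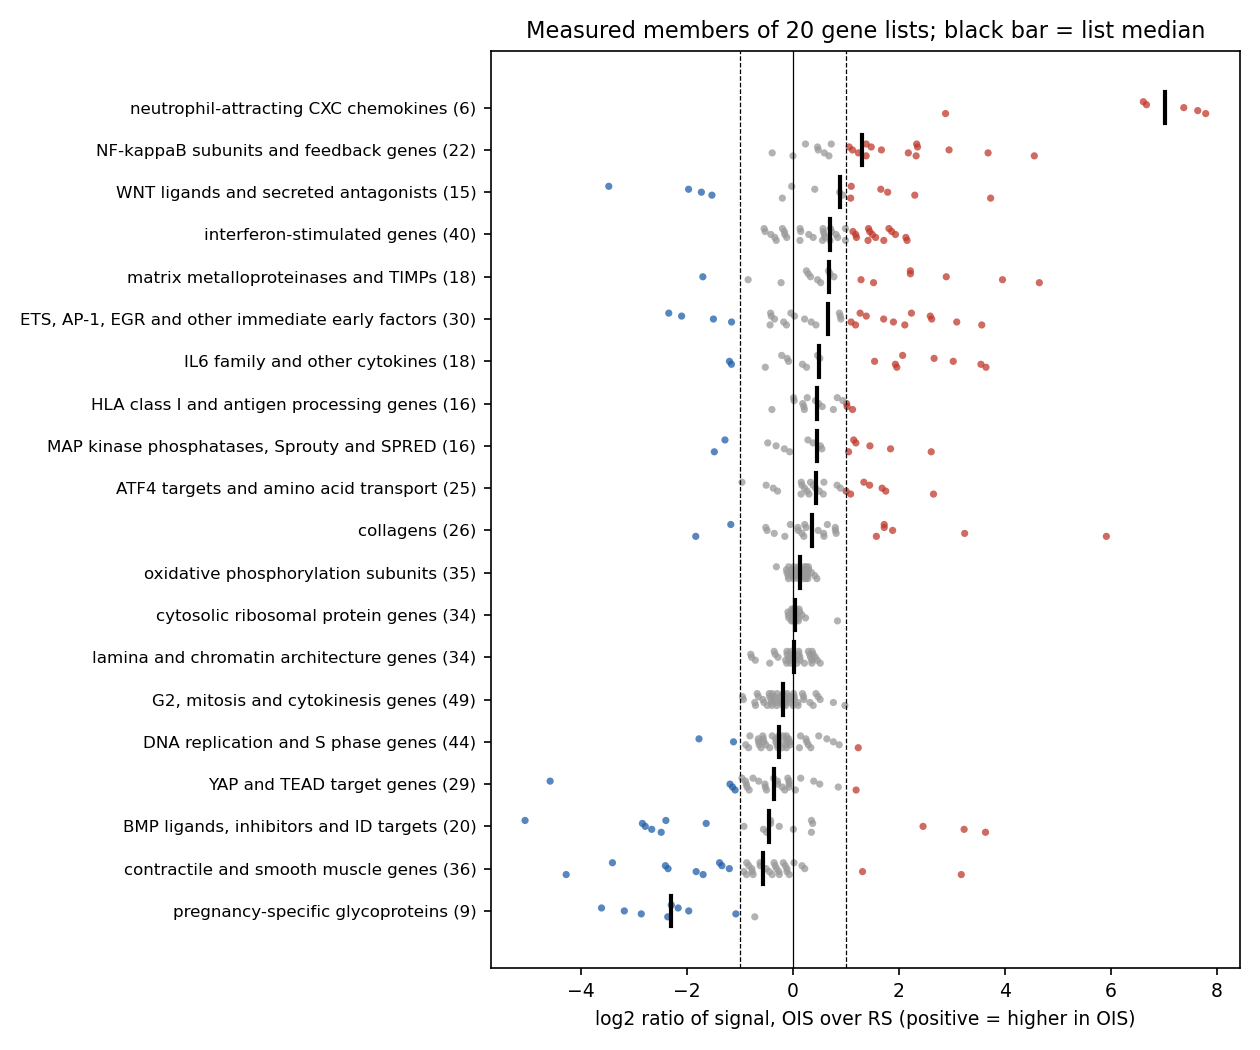
Log2 ratio of OIS over RS (horizontal) for each measured member of 20 gene lists, 1 point per gene with the number measured in brackets; black bars are list medians, dashed lines mark 2-fold, red and blue points are past it. The CXC chemokines have the highest median (7.03), the pregnancy-specific glycoproteins the lowest (-2.30), and the mitosis, lamina, ribosomal and oxidative phosphorylation lists have no member past 2-fold.

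Outside the lists, receptors, channels and enzymes filled the rest of the extremes in OIS. GABRA2, a subunit of the GABA receptor, had 3119 in OIS, 70.7 in RS and 119.7 in growing cells, 44.1-fold higher, with 3 further probe sets from 3.33 to 5.77. TFPI2, a protease inhibitor of the matrix, had 25348 in OIS, 1428 in RS and 8445 in growing cells, 17.7-fold higher, and MME, the peptidase neprilysin, 9113 in OIS, 606 in RS and 791 in growing cells, 15.0-fold higher. BCL2A1, an antiapoptotic target of NF-kappaB, had 2209.6 in OIS, 34.0 in RS and 57.1 in growing cells, at least 48.6-fold higher. CHST2, a sulfotransferase, was 24.4-fold higher, TCIM 20.04-fold, C11orf96 19.7-fold, the amino acid transporter SLC6A15 19.0-fold, the scavenger receptor COLEC12 18.1-fold, the antisense transcript RIPOR3-AS1 14.9-fold and the calcium channel subunit CACNA2D3 13.9-fold higher. For TFPI2 and MME second probe sets gave 4.84 and 3.84, while for CHST2 and C11orf96 they gave only 1.18 and 0.91. The 3 further probe sets of SLC6A15 gave 0.93 to 3.35. Strand was not considered in naming RIPOR3-AS1, whose signal may not be separable from that of the gene it overlaps.

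At the other end OXTR, the oxytocin receptor, had 108 in OIS, 3058 in RS and 1952 in growing cells, 28.2-fold lower, so that growing and RS cells were alike and OIS low. TMEM178B had 27.3 in OIS, 2193 in RS and 56.3 in growing cells, at least 48.2-fold lower, with a second probe set at -2.39, and ATP10A, a lipid flippase, 198 in OIS, 3098 in RS and 566 in growing cells, 15.6-fold lower, with a second at only -0.21. NRXN3, a neurexin, was 11.8-fold lower, COBLL1 11.1-fold, the amino acid transporter SLC38A4 10.3-fold, TMEM176B 10.0-fold, PITPNM3 9.69-fold, the small heat shock protein CRYAB 9.36-fold, CYP2U1 8.83-fold and phospholipase PLCB4 8.75-fold. Second probe sets gave log2 ratios of -1.01 for COBLL1, -0.96 for SLC38A4, -1.95 for CYP2U1 and -3.69 for PLCB4. The 3 further probe sets of NRXN3 gave -2.91 to -0.785. The long noncoding RNA LINC01279 had 154 in OIS, 1537 in RS and 1805 in growing cells, 9.96-fold lower. With OIS under the floor, the potassium channel gene KCNQ5 was at least 15.1-fold lower, TSPAN10 at least 12.2-fold, ADIRF at least 12.1-fold, PNMA2 at least 10.6-fold, LINC01116 at least 8.57-fold and the clathrin-uncoating cofactor DNAJC6 at least 7.55-fold.

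The array of growing cells shows which of the senescent arrays stood apart for a given gene. Of the 738 genes on the side of OIS, growing cells were within 2-fold of RS alone for 349 (47.3%), of OIS alone for 146 (19.8%), of both for 177 and of neither for 66. IL6, ICAM1, MMP3, EGR1 and CXCL10 were of the first kind, and TSLP, TNFRSF19, DDIT4, ASNS and HRAS of the second. Of the 709 genes on the side of RS the counts were 217 (30.6%), 208 (29.3%), 231 and 53. SFRP1, OXTR, DKK1 and DCN were within 2-fold of RS alone, ID1, ID3, ACTC1 and ANKRD1 of OIS alone, and NOG and CXCL12 of neither, with growing cells in between. Of the immediate early genes past 2-fold 12 were within 2-fold of RS alone and none of OIS alone, while of the 7 ATF4 targets past 2-fold 4 were within 2-fold of OIS alone and 3 of both.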

How the data were processed

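RNA of IMR-90 ER:Ras cells was measured on 1 array per condition, 3 in all, and groups were taken from the labels. The deposited table gives each probe set a linear intensity from MAS5, per the submitters' processing notes. The version and settings of MAS5 are not stated there. Per the labels' protocols biotin-labelled cRNA was prepared from total RNA. MAS5 subtracts background and scales each array to a common mean, so a shift shared by all genes would not be seen.

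Gene names came from the platform annotation of the 54613 probe sets: 41091 named 1 gene and were used, 1801 named several and 11721 none. Of those used 41037 were found in RefSeq, none with a newer symbol. Values under 45.5, the pooled median, were raised to it, log2 was taken, and a gene was represented by the probe set with the highest mean over the 3 arrays. Log2 ratios of OIS over RS were formed, and with 1 array a side no p-value or standard error was computed.

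The rule for naming genes took the 20 highest and 20 lowest with both arrays above the floor and no other such probe set of opposite sign, the 8 highest and 8 lowest with 1 array under it, fixed genes, and in each list with at least 5 measured members its 3 highest, 3 lowest and all past 2-fold. Some that it took within 2-fold are given only in their list's counts, and 1 list and its members are not reported here. Further list members named as being within 2-fold, ESR1, TRAF6 and IRAK1 were chosen after their values were seen. The comparison, its members and the 52 lists were chosen with earlier results of these data known, and other items are also not reported here. Promoter windows and miRNA sequences came from RefSeq tables (GRCh38.p14) and motifs were matched as letters on both strands. The steps were tested on simulated data. Alternatives were another normalization, centring, floors, a pseudocount (16), keeping dim genes and other choices of probe set. Python 3.11.15 was used with pandas 2.3.3, numpy 2.4.6 and, for plots, matplotlib 3.10.9.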

Additional observations from a re-analysis of the deposited data

How the results depend on the processing

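With a floor at the 25th percentile (11.7) the counts grew to 1731 higher and 1579 lower in OIS. A lower floor lets dim genes enter and also lets ratios against dim signals grow, and these were not separated. Under the other 8 settings the counts were 501 to 875 higher and 502 to 825 lower, and the higher side made up 49.7% to 52.3% of genes past 2-fold in all settings. Of the 1447 genes past 2-fold 1414 remained so with quantile normalization, 1440 after centring, 1144 with the floor at the 60th percentile (88.8), 1296 with a pseudocount of 16, 961 with the median of all probe sets and 1108 without _s_at and _x_at probe sets. Some list medians changed sign. Without _s_at and _x_at probe sets they were -0.0331 for the plasminogen list, 0.61 for the EGF list, 0.0032 for epithelial markers and 0.19 for pregnancy-specific glycoproteins, where PSG6, at 0.19, was the 1 gene left. With the floor at the 25th percentile they were 0.0273 for the EGF list, 0.0507 for FGF, VEGF and PDGF genes and 0.27 for muscle lineage markers. At the 60th percentile the FGF list gave 0.0444 and blood cell markers 0.56, and with the pseudocount the FGF list gave 0.0436. With the median of all probe sets ADAMTS proteases gave -0.10 and SEMA3F -0.17. The cause was not tested. Quantile normalization and centring turned no list. Taking the median over probe sets, 227 of the 283 named genes past 2-fold remained so, and those lost included CXCL2, ITGB8, LEF1, MET, ATP10A, ACTG2, ID4, CDT1, CCNE2, CDKN1C and AXIN2. ADAMTSL1, MMP11, PECAM1, COL14A1, LDB3, SYNPO, EPSTI1, FGF9, KLF15 and WNT5B were lost as well. No paired analysis was possible because each condition had 1 array, and for the same reason no array could be left out. Genes near the floor have bounds and no measured fold, and precision is limited by having 1 array a side.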

Other observations

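Some genes at least 2-fold apart lie next to each other among the 13049 measured genes that could be placed in the RefSeq order. There were 22 runs of 3 or more neighbours on the same side, a description made after the values were seen. On chromosome 4 CXCL8, CXCL6, PF4V1 and CXCL1 formed a run higher in OIS, and CXCL5, CXCL3, CXCL2 and MTHFD2L the next. Among measured genes only PF4, a dim gene with a log2 ratio of 0.54, lay between these. PPBP, the listed neutrophil chemokine under the floor on both arrays, was not measured and could enter no run. MTHFD2L, a mitochondrial folate enzyme and no chemokine, had 755 in OIS, 337 in RS and 571 in growing cells, 2.24-fold higher. On chromosome 11 the proteases MMP10, MMP1, MMP3 and MMP12 formed a run, and CASP12, CASP4 and CASP1 another. CASP1, which cleaves the precursor of interleukin-1 beta, had 2768 in OIS, 1081 in RS and 1688 in growing cells, 2.56-fold higher, with 4 further probe sets from 1.13 to 1.85. CASP4, the sensor of bacterial lipopolysaccharide in the cytosol, had 2989.6 in OIS, 1449.5 in RS and 1709.9 in growing cells, 2.06-fold higher, with a second probe set at 0.35.

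On chromosome 20 the salivary-type cystatins CST4, CST1 and CST2, inhibitors of cysteine proteases, were higher in OIS, with CST1 at least 13.4-fold and CST4, at 1493 in OIS, 314 in RS and 119 in growing cells, 4.76-fold. These are near-identical copies whose probes may share signal. On chromosome 14 the imprinted noncoding RNA MEG3 and its neighbours SNORD114-3 and MEG9 were lower in OIS. MEG3 had 373 in OIS, 1730.0 in RS and 509 in growing cells, 4.64-fold lower, with 6 further probe sets from -1.59 to -0.27. On chromosome 15 ARRDC4, IGF1R and SYNM were lower in OIS, with ARRDC4 at 1305 in OIS, 4335 in RS and 758 in growing cells, and on chromosome 12 KITLG, the ligand of the receptor KIT, was 3.08-fold higher beside DUSP6. Further probe sets of IGF1R were within 2-fold. Neighbouring probe sets were not checked for transcripts that read through several genes.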
